A study of Mus musculus with 16 samples.

Results

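Matrix Gla protein (Mgp) and 9 other genes of bone and cartilage were followed through 16 primary rhabdoid tumors (RT) of the mouse. The 10 genes, of 24982 in the count table, were Mgp, Runx2, Sp7, Bglap, Ibsp, Spp1, Alpl, Acan, Comp and Dmp1. They were chosen by name, with measured values of these same tumors in view, so that their levels are a description here and carry no test of their own. Mgp ranged from 42.1 to 33706 TPM (a level corrected for gene length and depth) and was the most abundant transcript of all in 2 tumors. Runx2, Spp1 and Mgp were lower in tumors of the brain parenchyma than in most others, Alpl was higher there than in most others, and Dmp1 was at 93.0 TPM or more in 3 tumors and at 9.41 TPM or less in the others.

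Bone is laid down by osteoblasts, whose differentiation requires the transcription factors Runx2 and Sp7 (osterix). Osteoblasts secrete a collagen matrix with bone sialoprotein (Ibsp), osteopontin (Spp1) and osteocalcin (Bglap), and the phosphatase encoded by Alpl removes an inhibitor of mineral growth. Dmp1 marks osteocytes, the cells enclosed in mature bone, aggrecan (Acan) and Comp are matrix proteins of cartilage, and Mgp is a vitamin K-dependent inhibitor of mineralization made by chondrocytes and vascular smooth muscle. Several of these genes are also used outside the skeleton, among them Spp1 in activated macrophages and Alpl in brain endothelium.

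Each tumor came from a different Smarcb1flox/flox;R26-CreERT2 mouse on a mixed 129/SV and C57BL/6 background, in which tamoxifen given to the embryo activated a ubiquitous Cre and so removed Smarcb1, a subunit of the SWI/SNF chromatin remodeler. All groups shared this genotype and treatment, and no normal tissue or untreated control was among the tumors analysed here. The 5 intra-CNS tumors (the murine Shh subgroup) were all induced at E6 and were taken from mice aged 30 to 180 days. The 11 others (the Myc subgroup) were 6 intracranial extra-CNS tumors, induced at E6 (1), E7 (1) or E8 (4) and taken at 52 to 170 days, and 5 extracranial tumors of the back, jaw (2), nose and mouth, induced at E6 (1) or E8 (4) and taken at 80 to 210 days. Since tamoxifen at E6 was used for all intra-CNS tumors and for 2 of the 11 others, site and day of induction overlap. For tumors of the brain, pieces holding tumor were cut from frozen sections, and any of the libraries may hold host cells that lay among the tumor cells. In such bulk RNA, fewer cells of a type and less RNA per cell cannot be told apart.

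The libraries held between 17889968 and 110177889 counts, at which 3 counts, taken as the floor of detection, correspond to between 0.0272 and 0.168 CPM (counts scaled to library size). Smarcb1 itself was at 3.99 to 58.1 TPM in intra-CNS tumors and at 6.48 to 43.7 TPM in the others. It was highest in the intra-CNS tumor of mouse 29048 and in the intracranial extra-CNS tumor of R26P115. The 29048 tumor also had a summed level of 6295 TPM over 6 oligodendrocyte markers, against 47.4 to 154 TPM in the other 4 intra-CNS tumors and 42.2 to 136 TPM in the 11 tumors outside the parenchyma. The tumor of 43990A is extracranial in the labels and intracranial extra-CNS in the study's table of mice, and it was kept as extracranial.

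The regulatory sequence just ahead of a gene is shown for some members. RefSeq (GRCm38.p6) gave windows for 7 of the 10 members, and the 250 bases before each start were searched on both strands for TGTGGT, the core recognised by Runx factors. This core was searched because Runx2 is a member. The windows printed, of Spp1, Dmp1 and Bglap, are those that held it ahead of the gene, and they do not stand for the other members. The letters are in coding orientation, 5′ to 3′, and the capitals mark the core, which reads ACCACA when it lies on the other strand. Any base that GENCODE already places inside the gene was left off.
Spp1: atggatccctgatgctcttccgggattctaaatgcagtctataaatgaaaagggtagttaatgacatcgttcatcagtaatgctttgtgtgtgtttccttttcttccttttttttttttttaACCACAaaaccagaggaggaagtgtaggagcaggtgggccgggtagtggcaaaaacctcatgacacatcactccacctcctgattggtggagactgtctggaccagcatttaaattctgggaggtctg
Dmp1: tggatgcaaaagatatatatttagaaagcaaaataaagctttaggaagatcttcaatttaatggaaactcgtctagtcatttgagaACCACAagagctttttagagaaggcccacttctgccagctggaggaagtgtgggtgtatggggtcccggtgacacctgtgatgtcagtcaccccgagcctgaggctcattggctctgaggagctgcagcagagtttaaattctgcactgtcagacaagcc
Bglap: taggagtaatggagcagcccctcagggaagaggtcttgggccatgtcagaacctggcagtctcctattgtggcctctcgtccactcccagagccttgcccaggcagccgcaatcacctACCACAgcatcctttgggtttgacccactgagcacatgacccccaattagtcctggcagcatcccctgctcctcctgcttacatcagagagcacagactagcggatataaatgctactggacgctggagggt

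The Spp1 window is chr5:104434861-104435110 (plus strand), the Dmp1 window is chr5:104202367-104202612 (plus strand) and the Bglap window is chr3:88384467-88384716 (minus strand). The core began 128 bases before the Spp1 start, 164 before that of Dmp1 and 132 before that of Bglap. The window of Runx2 held it 80 bases before the RefSeq start, at bases that GENCODE already places inside the gene, and those of Ibsp, Alpl and Acan did not hold it. The same letters occurred in 14.0% of 32817 promoter windows of this length. Such a match describes the sequence only.

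Mgp (ENSMUSG00000030218.2) lies at chr6:136872435-136875823 on the minus strand of GRCm38. In the 5 intra-CNS tumors its levels were 42.1, 87.0, 105, 171 and 189 TPM. In the 6 intracranial extra-CNS tumors they were 82.9, 169, 314, 420, 1106 and 23486 TPM. In the extracranial tumors they were 573 TPM in the back, 6143 in the mouth, 7374 in the nose, and 6330 and 33706 in the jaw. The groups overlapped, because 29941C (82.9 TPM) and 29225D (169 TPM), both intracranial extra-CNS, lay within the intra-CNS range, while the other 9 tumors outside the parenchyma lay above it. The 4 extracranial tumors of the head stood above every intracranial tumor except 43989C.

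Mgp ranked first among all transcripts in the jaw tumor of 43987A and in the intracranial extra-CNS tumor of 43989C, where it made up 3.37% and 2.35% of TPM. Its rank was 3 in the nose tumor and in the other jaw tumor, and 8 in the mouth tumor. In the intra-CNS tumors its rank lay between 829 and 5533. Mgp held 92.6% to 97.5% of the summed TPM of the 10 genes in the 4 extracranial tumors of the head and 94.0% in 43989C, so that a sum over these genes is a measure of Mgp there.

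**Figure D1:**
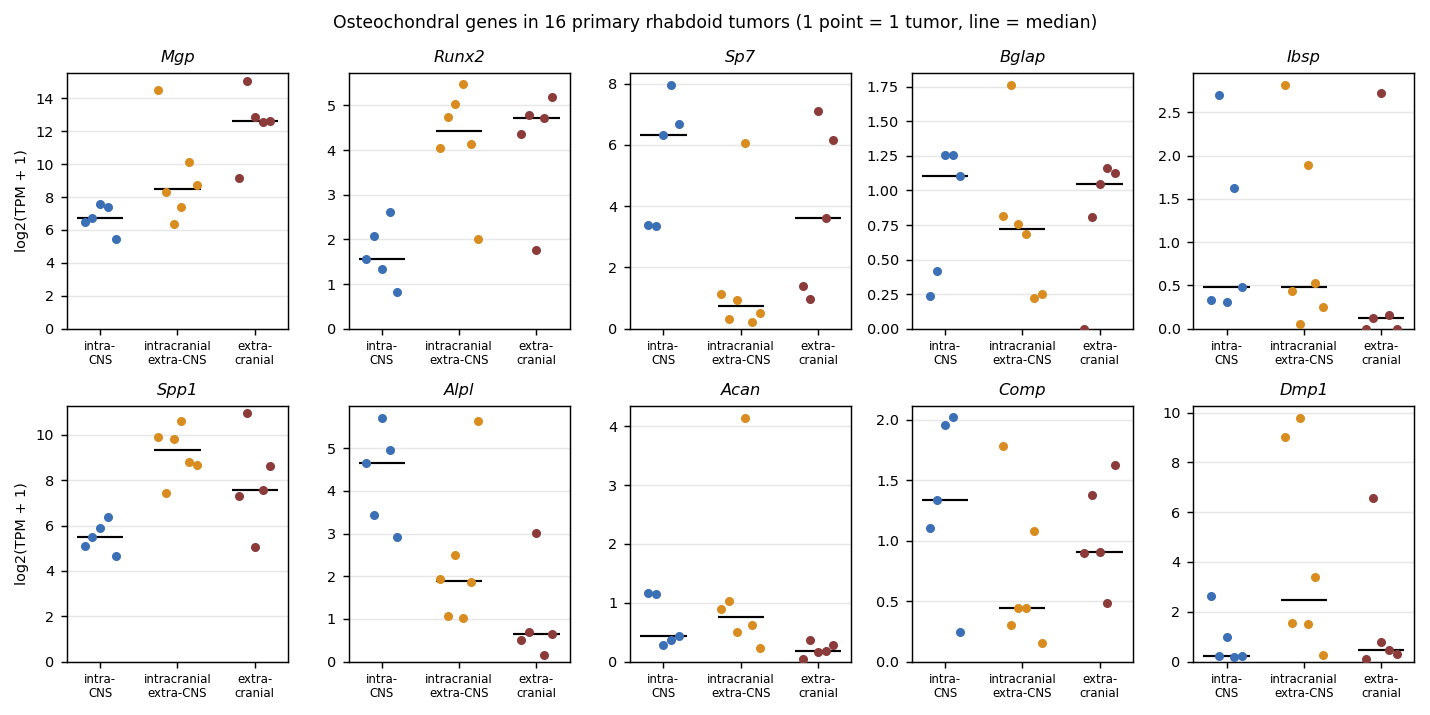
Levels of the 10 genes as log2(TPM + 1) (vertical axis, a separate scale for each gene, starting at 0) by site of the tumor (horizontal axis). Each point is 1 of 16 tumors and each line the median of its group: Mgp, Runx2 and Spp1 are low in the 5 intra-CNS tumors, 3 tumors carry the high values of Dmp1, and a single tumor that of Acan.

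Runx2 (chr17:44495987-44814797, minus strand) was at 0.776, 1.55, 1.94, 3.19 and 5.10 TPM in the intra-CNS tumors. In the intracranial extra-CNS tumors it was at 3.05, 15.4, 16.5, 25.5, 31.5 and 43.9 TPM. In the extracranial tumors it was at 2.39, 19.5, 25.2, 26.8 and 35.2 TPM. Of the 11 tumors outside the parenchyma, 9 lay above every intra-CNS tumor, and R26P115 (3.05 TPM) and the nose tumor of 43990A (2.39 TPM) lay within the intra-CNS range. The Supt3 gene runs through this locus on the opposite strand and covers exonic bases of Runx2. The study used a stranded library kit, but the strand setting of the counting is not given in the sources used here.

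Sp7 (chr15:102356606-102367182, minus strand), which acts downstream of Runx2 in osteoblasts, had another distribution. In the intra-CNS tumors it was at 9.12, 9.56, 79.4, 102 and 247 TPM. In the intracranial extra-CNS tumors it was at 0.175, 0.252, 0.431, 0.931 and 1.19 TPM in 5 tumors and at 66.2 TPM in 29225D. In the extracranial tumors it was at 0.946 TPM in the jaw of 43987A, 1.65 in the back, 11.2 in the mouth, 70.8 in the jaw of R26P123 and 136 in the nose. Thus 7 of the 11 tumors outside the parenchyma lay below every intra-CNS tumor, and the nose tumor combined low Runx2 with the highest Sp7 of its group. Over all 16 tumors the highest value, in R26P98, was 1412 times the lowest.

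Spp1 (chr5:104435118-104441050, plus strand) was at 24.3, 33.7, 43.5, 58.1 and 81.8 TPM in the intra-CNS tumors. It was at 173, 411, 452, 897, 956 and 1574 TPM in the intracranial extra-CNS tumors, all above that range. In the extracranial tumors it was at 32.3 TPM in the nose, 159 in the back, 190 in the mouth, and 398 and 1993 in the jaw. The nose tumor of 43990A was thus the only tumor outside the parenchyma that overlapped the intra-CNS group. Intracranial extra-CNS tumors had the highest median, 674 TPM, followed by extracranial tumors with 190 and intra-CNS tumors with 43.5. The ranges of the intracranial extra-CNS and extracranial tumors overlapped. Gm42793, a GENCODE entry on the same strand, covers exonic bases of Spp1 and is not among the genes of the count table.

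Since macrophages also make osteopontin, their markers are given beside it. All 10 macrophage markers were detected in every group, and their summed level was 708 to 1172 TPM in intra-CNS tumors and 933 to 9244 TPM in the others. The 6 fibroblast markers summed to 302 to 907 TPM and to 416 to 7062 TPM, whereas the 6 mural cell markers summed to 72.9 to 170 TPM and to 17.5 to 296 TPM. Over the 11 tumors outside the parenchyma, the Pearson correlation of Spp1 with the macrophage sum was -0.23 (log2 scale), and that of Mgp with it was 0.39. Spp1 gave 0.52 with the mural sum and 0.67 with the sum of 6 brain matrix genes. For Mgp it was -0.22 with the fibroblast sum and -0.05 with the mural sum. Over all 16 tumors, the correlation with the macrophage sum was 0.49 for Spp1, 0.68 for Mgp and 0.73 for Runx2. In the same order it was 0.37, 0.26 and 0.68 with the fibroblast sum and -0.40, -0.57 and -0.50 with the brain matrix sum. Spp1 gave 0.28 with the mural sum over all 16. Over the 11, Runx2 gave 0.28 with the macrophage sum, 0.42 with the fibroblast sum and 0.51 with the brain matrix sum. These correlations come from libraries that share their depth and tissue with the genes compared. The part of these cell types in the differences was not tested.

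Alpl (chr4:137741733-137796384, minus strand) showed the opposite order to Runx2. It was at 6.54, 9.81, 24.1, 29.8 and 51.3 TPM in the intra-CNS tumors. In the intracranial extra-CNS tumors it was at 1.02, 1.10, 2.62, 2.84 and 4.67 TPM in 5 tumors and at 49.0 TPM in R26P115. In the extracranial tumors it was at 0.110, 0.428, 0.554 and 0.615 TPM, with 7.02 TPM in the nose. Hence 9 of the 11 tumors outside the parenchyma lay below all intra-CNS tumors. The 2 that did not, R26P115 and 43990A, were the same 2 that had Runx2 in the intra-CNS range. The 6 endothelial markers summed to 82.5 to 215 TPM in intra-CNS tumors and 36.3 to 425 TPM in the others, and their correlation with Alpl over the 16 tumors was -0.07. Over the 16 tumors, Alpl gave -0.78 with the macrophage sum, -0.64 with the fibroblast sum and 0.58 with the brain matrix sum. Over the 11 outside the parenchyma these were -0.67, -0.54 and -0.06, and Alpl gave -0.19 with the endothelial sum. The part of these cells in the Alpl levels was not tested.

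Dmp1 (chr5:104202613-104214102, plus strand) was at 876 TPM in 29941C, 512 TPM in 43989C and 93.0 TPM in the jaw tumor of 43987A. The next values were 9.41 TPM in R26P170 and 5.16 TPM in the intra-CNS tumor of 29048. The other 11 tumors were at 1.96 TPM or less. The first value rests on 130357 counts and the lowest, 0.0678 TPM in the back tumor, on 2 counts, which is under the floor. The 3 high tumors were of 2 sites, and each was induced at E8, as were 8 of the 11 tumors outside the parenchyma.

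Dmp1 belongs to a cluster of genes for acidic phosphoproteins of bone and tooth that includes Dspp, Ibsp, Mepe and Spp1. Its neighbours were looked at after its values had been seen. In the 3 tumors with high Dmp1, Dspp was at 0.0202 to 0.112 TPM and Mepe at 0 to 0.0865 TPM, and both stayed under 0.5 TPM in every tumor. Ibsp (chr5:104299171-104311469, plus strand), which lies between Dmp1 and Spp1, was at 6.02 TPM in 43989C and at 0.0425 and 0.0916 TPM in 29941C and 43987A. Spp1 was at 897 to 1993 TPM in these 3 tumors and at 32.3 to 1574 TPM in the other 8 tumors outside the parenchyma. Sparcl1, which lies before Dspp and codes for a secreted protein related to Sparc, was at 131 to 534 TPM in the 3 tumors. In the other 8 it was at 17.0 to 112 TPM, and the nearest values were 131 TPM in 43989C and 112 TPM in 29225D. How many of all genes separate the 3 tumors from the other 8 was not counted. Sparcl1 was at 209 to 1591 TPM in the intra-CNS tumors, whose Dmp1 was 5.16 TPM or less. Pkd2, beyond Spp1, was at 39.7 to 97.0 TPM in the 3 tumors and 46.6 to 82.1 TPM in the other 8.

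**Figure D2:**
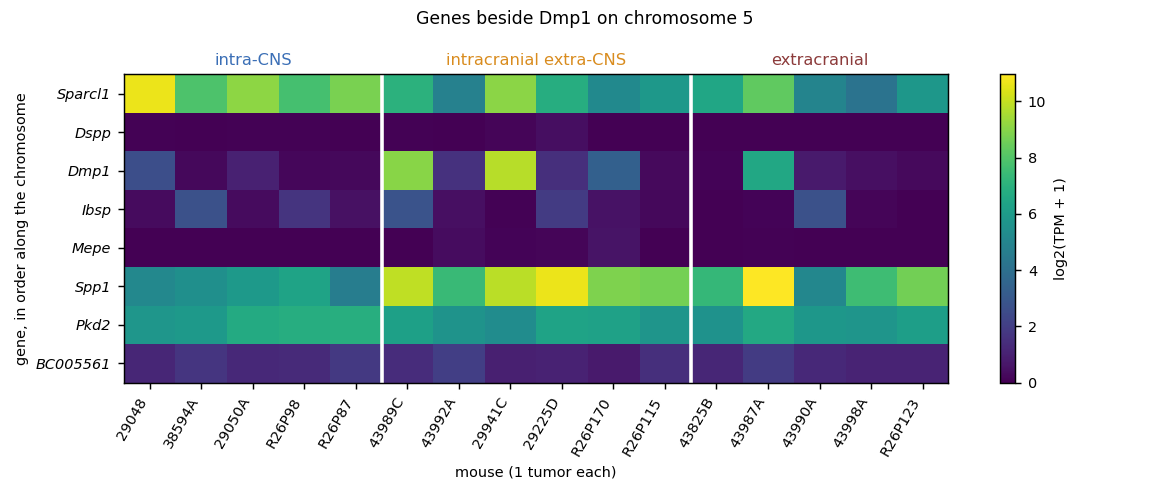
Levels of Dmp1 and its protein-coding neighbours on chromosome 5 (rows, in chromosomal order) in each of the 16 tumors (columns, by site), colored by log2(TPM + 1). Dmp1 is high in 29941C (876 TPM), 43989C (512 TPM) and 43987A (93.0 TPM), while Dspp and Mepe are dark in every column.

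The remaining members were low. Ibsp exceeded 1 TPM in 5 of 16 tumors, which were 38594A (5.52 TPM) and R26P98 (2.10) in the brain parenchyma, 43989C (6.02) and 29225D (2.71) among the intracranial extra-CNS tumors, and the nose tumor (5.60). In 3 extracranial tumors it was at or under 3 counts. Bglap (chr3:88383501-88384464, minus strand) reached 2.39 TPM at most, with 0 to 17 counts per tumor and 6 tumors at or under the floor. Of the 100-base windows of the Bglap transcript, 56.3% occur unchanged in those of its copies Bglap2 or Bglap3, so reads of these genes may have been split or dropped in counting and the Bglap level is uncertain. Bglap2 reached 20.8 TPM in the nose tumor and 0.473 TPM or less elsewhere.

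Acan (chr7:79053483-79115099, plus strand) was at 16.7 TPM in 29225D, with 3526 counts, and at 1.24 TPM or less in the other 15 tumors. Comp (chr8:70373558-70382066, plus strand) was at 0.182 to 3.06 TPM in intra-CNS tumors, 0.113 (3 counts, at the floor) to 2.45 TPM in intracranial extra-CNS tumors and 0.396 to 2.08 TPM in extracranial tumors. The 3 ranges of Comp overlapped almost fully. Both genes of the cartilage matrix were thus low at the median of each group.

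By median over all tumors, the order of the genes was Mgp (367 TPM), Spp1 (182), Runx2 (16.0), Sp7 (9.34), Alpl (3.75), Comp (0.992), Dmp1 (0.857), Bglap (0.754), Acan (0.322) and Ibsp (0.306). The last 5 were under 1 TPM at the median and overlapped in range, so that their order is not resolved. The number of members at 10 TPM or more was 2 to 5 in each tumor.

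The 10 genes did not vary as a unit. Among their 45 pairs, the Pearson correlation of log2(TPM + 1) over 16 tumors had a median of 0.06 and ranged from -0.81 to 0.81. It exceeded 0.5 in 2 pairs, Runx2 with Spp1 (0.81) and Spp1 with Dmp1 (0.60). It was under -0.5 for Runx2 with Alpl (-0.81) and for Sp7 with Dmp1 (-0.51). Over the 11 tumors outside the parenchyma, Runx2 with Spp1 gave 0.57, Spp1 with Dmp1 0.59, Runx2 with Alpl -0.78, and Mgp with Comp 0.76. All pairs share the same libraries, and no p-value is attached.

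Members at 1 TPM or more in at least 8 tumors were set against every gene with a mean of 1 TPM or more. Over the 16 tumors, the 5 genes most like Mgp were Erp27 (r = 0.88), Tnfaip2, Gpx1, Zc3h12a and Col18a1 (0.81). Over the 11 outside the parenchyma they were AW549542 (0.90), Tbx3, Sgcd, Rhoj and Pcdhb9 (0.86), and none was in both sets. For Runx2 they were Anxa5 (0.96), Emp1, Anxa2, Lgals1 and Rin1 (0.94) over all tumors, and Anxa5 (0.95), Lgals1, Bloc1s6, Hace1 and Capn2 (0.94) over the 11. For Spp1 they were Cd63 (0.92), Snai1, Soat1, Iffo2 and Adam8 (0.90), with Cd63 (0.91) and Soat1 again leading over the 11, before Dhx40, Glrb and Thnsl2 (0.86). For Alpl they were Car14 (0.94), Prcd, Mia, Klf15 and Pced1b (0.92), and over the 11 Pcp4 (0.96), Sort1, Rhpn1, Cfap300 and Gstm7 (0.94). For Sp7 they were Amotl2 (0.91), Mcm8, Inppl1, Zfp830 and Hnrnpc (0.86), and over the 11 Wdr82 (0.91), Amotl2, Klhl9, Pcdh8 and Xpo7 (0.88). For Comp, whose counts were low, they were Pcdhb4 (0.82), Dpagt1, Pcdhb5, Dlx5 and Insyn1 (0.77), and over the 11 Clec4n (0.91), Tnfrsf1a, Rab4b, Mprip and Mfap5 (0.89).

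The first comparison set the 5 intra-CNS tumors against the 11 others, since in this model tumors of the parenchyma form one molecular subgroup and all other tumors the second. Genes were called with edgeR's quasi-likelihood test when the adjusted p was under 0.05 and the log2 fold change was beyond 1 in either direction. Of 21854 genes tested, 26% were called, 12.9% as higher and 13.1% as lower in intra-CNS tumors. All 10 members entered the fit and 3 were called, all as lower, and nothing is read from this share because the members were chosen with such values known. The log2 fold change was -6.44 for Mgp (SE 1.62), -4.27 for Spp1 (SE 0.86) and -3.65 for Runx2 (SE 0.67). These fitted values follow the mean count of a group, which a few very high tumors carry. The difference in mean log2(TPM + 1) was -3.98 for Mgp, -3.12 for Spp1 and -2.52 for Runx2.

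Dmp1 had the lowest fitted value of the members, -7.16, with an SE of 2.69, and was not called. It was called in 8 of the 16 fits that left out a single tumor, by DESeq2 (-5.90), after filtering on low counts and among tumors inside the skull (-7.94). Among tumors induced at E6 it was at -2.42, and its difference in mean log2(TPM + 1) was -2.21, neither of which was called. Sp7 (1.32, SE 1.33) and Alpl (1.29, SE 1.09) lay above 0 and were not called. Sp7 was at 0.47 without R26P98, at 2.10 without 43990A and at 6.07 among tumors induced at E6, and was called in none of these fits. Alpl was called by limma (2.60), was at 0.58 inside the skull and at 3.43 at E6, and without the tumor of R26P115 its value was 3.06 and both Alpl and Dmp1 were called. This raised the number of members called from 3 to 5. Acan was at -1.93 (SE 1.31) and, without 29225D, at 0.23. Bglap (-0.40), Ibsp (-0.23) and Comp (0.40) lay near 0, but Ibsp was at -1.39 without 38594A and at 2.32 among tumors induced at E6, where Bglap was at 2.57, and neither was called. The median over the 10 members was -1.17, beside -0.15 over all genes tested. TPM of the groups did not overlap for 15.3% of genes and for none of the 10 members.

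**Figure D3:**
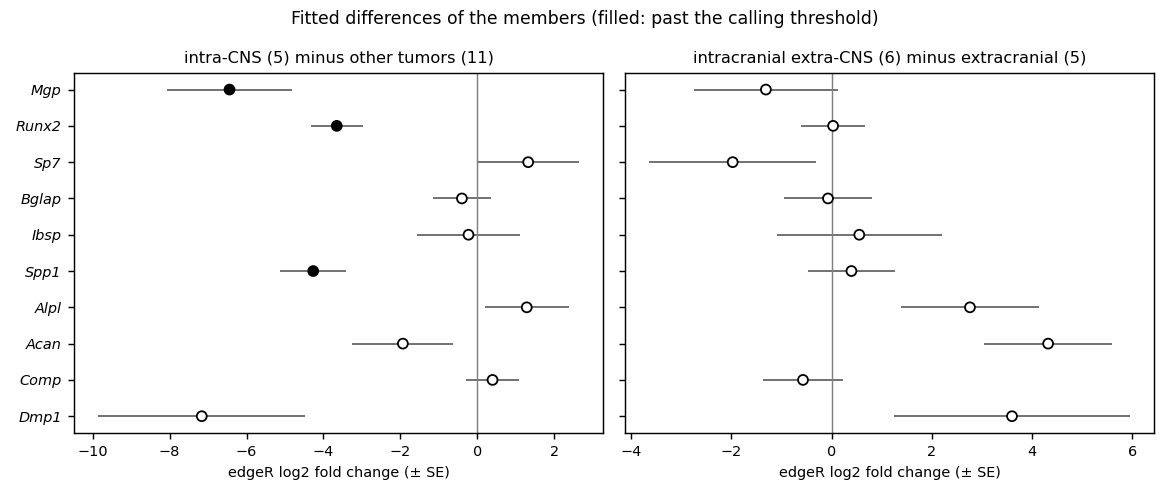
Fitted log2 fold change of each member (horizontal axis) with its standard error as a bar, for intra-CNS against other tumors on the left and for intracranial extra-CNS against extracranial tumors on the right. Filled points are genes past the calling threshold: Mgp, Runx2 and Spp1 on the left and none on the right.

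Mouse names follow a numbered scheme (11 tumors) or an R26P scheme (5 tumors), and the labels name no batches. Within numbered mice the difference in mean log2(TPM + 1) between intra-CNS and other tumors was -3.86 for Mgp, -3.10 for Spp1 and -2.71 for Runx2. Within R26P mice it was -4.06, -3.20 and -2.06. Among tumors induced at E6, which were 5 intra-CNS tumors and 2 others, the fitted value of Mgp was -3.38, and Mgp, Runx2 and Spp1 were still called.

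The second comparison asked whether site mattered among the tumors outside the parenchyma, with 6 intracranial extra-CNS against 5 extracranial tumors. Of 21261 genes tested, 1 (0.0047%) was called by edgeR, and it was not a member. None of the 10 members was called by edgeR, by DESeq2 or by limma, and 1 had an unadjusted p under 0.05 in edgeR, while 2606 of all genes did. DESeq2 called 490 genes. The log2 fold change of Mgp was -1.31 (SE 1.43), and without 43989C, the intracranial extra-CNS tumor at 23486 TPM, it was -4.63 and still not called. The difference of Mgp in mean log2(TPM + 1) was -3.21. Acan was at 4.32 (SE 1.28), at 2.03 without 29225D and at 1.04 as a difference in mean log2(TPM + 1). Dmp1 was at 3.60 (SE 2.36). It ranged from 2.48 to 9.37 when a single tumor was left out, with 9.37 without the jaw tumor of 43987A. Alpl was at 2.76 (SE 1.37) and at 0.58 without R26P115. Runx2 was at 0.03 (SE 0.63) and Spp1 at 0.39 (SE 0.87). For Spp1 the value was 1.93 without 43987A and 0.10 without 29225D, and for Mgp it was -0.19 without 43987A. Sp7 was at -1.97 (SE 1.66), and at -6.09 without 29225D, and Ibsp at 0.55 (SE 1.65), with 4.78 without 43990A and -0.60 without 43989C. With the tumor of 43990A counted as intracranial, Sp7 was at 0.43, Ibsp at 5.19, Alpl at 4.62, Runx2 at -0.46 and Spp1 at -0.12, and no member was called. These data do not resolve a difference by site for the members.

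Other genes of cartilage were taken from a list of 20. In intra-CNS tumors 3 of the 20 rose and 1 fell, or 20% of the list against 26% of all genes, and the median log2 fold change of the list was 0.07. Col2a1, the main collagen of cartilage, was 7.66 to 156 TPM in intra-CNS tumors and 0.0817 to 5.89 TPM in the others (log2 fold change 5.49, SE 1.0, adjusted p = 0.000643 by edgeR). Col9a1 (5.79, SE 1.09, adjusted p = 0.000779) and Col9a2 (2.60, SE 0.56, adjusted p = 0.00211), which code for chains of the collagen that coats Col2a1 fibrils, also did not overlap between the groups. Col9a1 was at or under the floor in 6 of the 11 others, so that its fitted value is no exact size. Epyc, a small proteoglycan, was at 0.0935 TPM or less in all intra-CNS tumors and reached 665 TPM in 43992A, with 4 of the 5 intra-CNS tumors and 3 of the 11 others at or under the floor (adjusted p = 0.00866). Its fitted value, -11.36 (SE 3.02), rests on a group near the floor and is no exact size. Epyc was not called by limma, nor Col9a1 among tumors induced at E6.

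Sox9, the transcription factor of chondrocytes, did not pass the test (0.12, SE 0.77), nor did Matn3 (-6.16, SE 2.70, adjusted p = 0.0898 by edgeR), whose median was 2.0 TPM in intra-CNS tumors and 0.634 TPM in the others. The high values of Matn3 were 864 TPM in 29225D, the tumor with the highest Acan, and 774 TPM in the nose tumor. Several other list genes were likewise high in a single tumor, namely Fmod at 932 TPM in the back tumor, Col9a3 at 832 TPM in R26P115 and Hapln1 at 48.8 TPM in 29941C. Col10a1, which marks hypertrophic cartilage, stayed at 0.840 TPM or less. These genes were singled out after their values were seen.

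Of 25 other genes of bone, 10 fell and 1 rose in intra-CNS tumors, or 44% of the list against 26% of all genes, with a median log2 fold change of -1.65. By limma, and again without 38594A, 7 of the 25 were called, and since the list was chosen with earlier results known, nothing is read from its share. Col1a2, a chain of the main collagen of bone and of most connective tissue, was at 22.9 to 81.7 TPM in intra-CNS tumors and 114 to 3041 TPM in the others (-5.59, SE 0.91, adjusted p = 0.000254). Postn, an adhesion protein of periosteum and of fibroblasts, was at 6.89 to 9.38 TPM and 14.1 to 7065 TPM (-7.99, SE 2.06, adjusted p = 0.00712). Both sets of groups were fully apart. Phex, an endopeptidase of osteoblasts and osteocytes (-6.05, SE 2.0, adjusted p = 0.0284), and Tnfsf11, the cytokine RANKL that drives osteoclast formation (-5.91, SE 1.78, adjusted p = 0.0176), overlapped between the groups. Smpd3, a sphingomyelinase needed for bone mineralization that neurons also express, rose (2.39, SE 0.75, adjusted p = 0.0225). Its call was lost without 29048, without 38594A, and among tumors induced at E6 or inside the skull. Phex was not called when any of the 5 intra-CNS tumors was left out, by limma, or with the name scheme as covariate, and Tnfsf11 not by limma or inside the skull. Col1a1 was not called by limma, without 29050A, at E6 or inside the skull, Cbfb not by limma, without 29048, without 38594A, at E6 or inside the skull, and Atf4 not by limma. The other genes called as lower were Col1a1, Sparc, Ifitm5, Mepe, Cbfb and Atf4, of which Mepe had no tumor above 0.472 TPM and was not called in most alternative fits, and Cbfb and Atf4 are expressed in most cells. In the second comparison none of these 45 genes was called by edgeR, and 12 of them had an unadjusted p under 0.05. Of all 21261 genes tested there, 2606 had such a p. Both lists were chosen with earlier results known, so nothing is read from the 12.

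**Figure D4:**
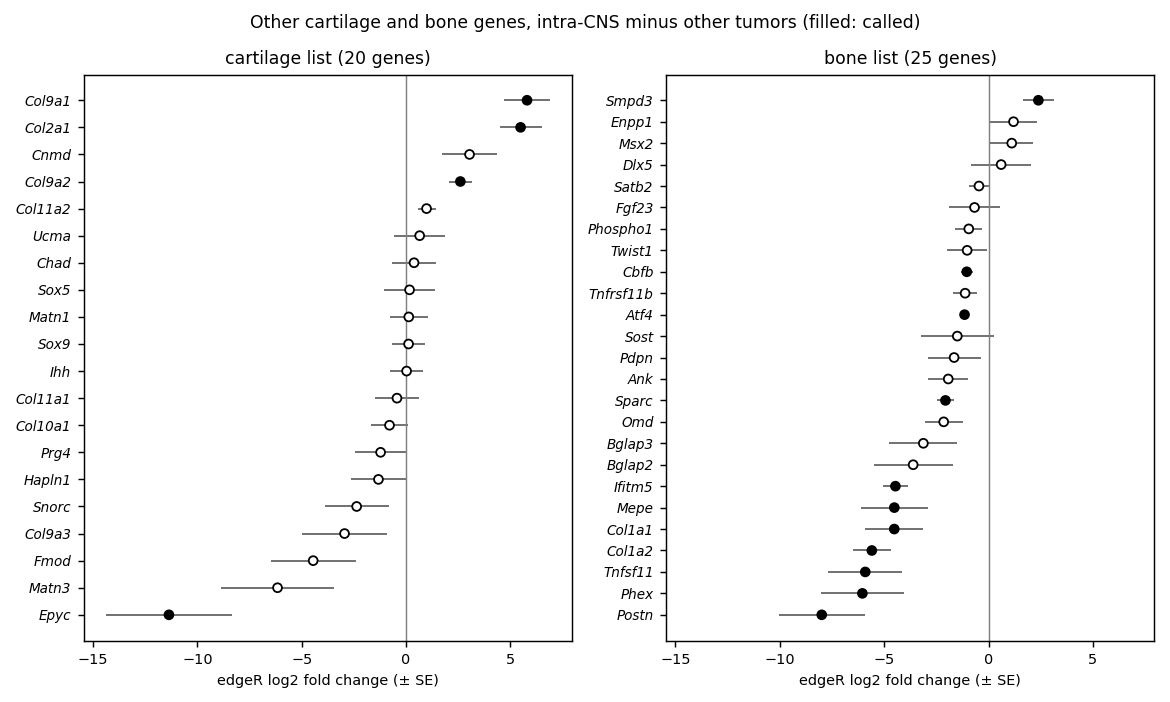
Fitted log2 fold change (horizontal axis, intra-CNS minus other tumors) with its standard error for 20 cartilage and 25 bone genes that are not members. Filled points passed the threshold: in the cartilage list Col2a1, Col9a1 and Col9a2 lie above 0 and Epyc below, and in the bone list 10 of the 11 filled points lie below 0.

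Markers of osteoclasts, the cells that resorb bone, are given beside Tnfsf11 for the tumors with its highest and second highest level. The relation of these genes over all tumors was not tested. The mouth tumor of 43998A had the highest Tnfsf11 (67.3 TPM) and Postn (7065 TPM), and the sum of 7 osteoclast markers reached 22837 TPM there. Ctsk (11043 TPM) and Acp5 (9967 TPM), a protease and a phosphatase of osteoclasts, made up most of this sum, and Atp6v0d2 was at 822 TPM, Ocstamp at 355, Oscar at 326 and Dcstamp at 321, while the calcitonin receptor gene Calcr was at 2.71. The jaw tumor of R26P123, second in Tnfsf11 with 11.9 TPM, had a sum of 2746 TPM and the back tumor one of 1151 TPM. All other tumors lay between 6.70 and 197 TPM, and in R26P98 and the nose tumor Calcr gave 99.7 and 99.1 TPM of the sum. In the mouth tumor, Sp7 was at 11.2 TPM, Alpl at 0.110 TPM on 4 counts, and Ibsp at 0.114 TPM on 3 counts. These tumors were singled out after their values were seen. Macrophage markers summed to 3318 TPM in that tumor, the lowest of the extracranial group. The part of osteoclasts in the levels of Spp1, which was 190 TPM there, was not tested.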

How the data were processed

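The authors trimmed reads (Trim Galore, FastQC), and used STAR 2.5.3a for mapping (mm10) and gene counting, as their methods and processing notes state. The deposited counts are raw whole numbers, and the TPM values deposited by the authors sum to 1000000 in each tumor. The gene annotation and the strand setting of the counting are not given in the sources used here. Groups followed the labelled tumor location.

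R 4.3.3 and edgeR 4.0.16 (TMM, glmQLFit, glmQLFTest) were used to test all genes counted in at least 1 tumor. Calls required a Benjamini-Hochberg adjusted p under 0.05 and a log2 fold change beyond 1 in either direction. Standard errors were the fitted log2 fold change divided by the square root of the F statistic. Replicates are tumors of separate mice. The code was tested on simulated counts with known changes. Levels were log2(TPM + 1). Positions came from GENCODE release 21 (GRCm38) and promoters from RefSeq (GRCm38.p6).

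The members and gene lists were chosen with earlier results of these data known. Named genes were the 10 members, up to 4 genes per list and direction past the threshold with the largest fold change at a mean count of at least 50, the 5 genes most correlated with each member at 1 TPM or more in at least 8 tumors, and Smarcb1. Other genes named were picked after their values were seen. Marker lists covered osteoclasts, macrophages, fibroblasts, mural and endothelial cells, brain matrix and oligodendrocytes.

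Alternatives were DESeq2 1.42.0, limma 3.58.1 on log2(TPM + 1), DESeq2 size factors in edgeR, filterByExpr, no fold threshold, name scheme as covariate, each tumor left out, tumors induced at E6 or inside the skull alone, 43990A as intracranial, and a pseudocount of 0.1. Reads carry no molecular identifiers, so floors cover counting error only. Python 3.11.15, numpy 2.4.6, pandas 2.3.3 and matplotlib 3.10.9 were used for tables and figures.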

Additional observations from a re-analysis of the deposited data

Results flagged for a closer look

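In each of the 30 combinations of 10 genes and 3 sites, the highest and lowest tumor were compared with the rest of their group on the log2(TPM + 1) scale, by the gap to the nearest tumor as a share of the range of the group (Dixon's criterion). This singled out 7 tumor values, and chance does so in about 1 in 20 groups. Because the genes were chosen with these levels known, the number is a description and is not read against that rate. The nose tumor of 43990A accounted for 3 of them among the extracranial tumors. It was the lowest in Runx2, at 1.76 with the next tumor at 4.36, and the highest in Ibsp, at 2.72 with the next at 0.16, and in Alpl, at 3.00 with the next at 0.69. The jaw tumor of 43987A was the highest extracranial tumor in Dmp1, at 6.55 with the next at 0.79.

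Among intracranial extra-CNS tumors, 29225D was the highest in Sp7, at 6.07 with the next at 1.13, and in Acan, at 4.14 with the next at 1.04. The tumor of R26P115 was the highest in Alpl, at 5.64 with the next at 2.5. No intra-CNS tumor was set apart in this way for any of the 10 genes.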

How the results depend on the processing

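Mgp, Runx2 and Spp1 kept their direction and their call in all 16 fits that left out a single tumor and in all 7 other fits of intra-CNS against other tumors, and no fold threshold left them called too. Values of members in that comparison that differed by more than the spread within groups came mainly from limma, which works on mean log levels (Mgp -3.98), and from the tumors induced at E6. No paired analysis was possible because no mouse contributed to both groups.

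The number of genes called in that comparison was 5689, and 3533 among tumors induced at E6, with 2 tumors in an arm. Without a single tumor it was 4766 to 6649. The number of members called without a single tumor was 3 to 5, with 5 where R26P115 was left out. Of the bone list, 11 genes were called, 7 by limma, and 7 to 12 without a single tumor, with 7 where 38594A was left out. The share of calls that were higher in intra-CNS tumors was 49.7% in the main fit and 75.5% with limma on log2(TPM + 1). The median of all genes was -0.15 and 0.20. That setting changes both the test and its input, so these shifts cannot be put down to either alone. Between the sites outside the parenchyma, edgeR called 1 gene and DESeq2 490, and leaving out single tumors gave 0 to 3 calls by edgeR. At 3 counts or less, a level could not be told from absence, which applied to Bglap in 6 tumors, to Ibsp in 3 and to Acan, Dmp1 and Comp in 1 each. The causes of these differences were not tested.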
